A study of Bos taurus with 16 samples.

Results

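The CXC chemokines CXCL12, CXCL5, CXCL8, GRO1 and CXCL10 and the receptors CXCR4 and CXCR3 were followed in the bovine corpus luteum, a temporary ovarian gland that arises from the ovulated follicle and secretes progesterone. They were found by accession, gene name or description among the probes of a 1-colour bovine array, and make up 7 of the 6742 gene symbols on it. Each of the 7 genes had 1 probe, and all 7 probes passed the filter on dim signals. The glands came from 16 Japanese Black cows, each a separate animal, in 4 groups of 4: non-pregnant (cyclic) cows at days 10-12 of the estrous cycle, then cows in pregnancy at days 20-25, 40-45 and 150-160, where insemination is day 1. All cows were untreated as far as the labels state, and the labels give neither age nor parity. The study compares luteal expression between cycling and pregnant animals, and its title names chemokines as the genes of interest.

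Chemokines are small secreted proteins that steer leukocytes and other cells along a concentration gradient by way of G-protein coupled receptors. CXCL5, CXCL8 and GRO1 carry the ELR motif, bind CXCR1 and CXCR2, and draw neutrophils into tissue, while CXCL10 is an interferon-inducible ligand of CXCR3 on activated T and natural killer cells. CXCL12 is made by stromal and endothelial cells and binds CXCR4 on leukocytes, progenitors and endothelium. In the bovine corpus luteum, neutrophil chemokines are known from work on ovulation, early gland growth and luteal regression, and CXCL10 and its receptor from work on immune cells of early pregnancy.

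The sequences below identify the probe behind each value, and none was aligned to a transcript. They are windows of 30 bases from the 60-base array probes, 5′ to 3′, and all come from the deposited array files, which give no genome position for them. The gene neighbourhoods are those of the RefSeq assembly ARS-UCD2.0. The capitals mark bases that the GRO1 probe shares in 1 unbroken run with the probe of a neighbouring gene of the same cluster.
CXCL12 (probe bases 1 to 30, named SDF1 in the files, chromosome 28): ccacaaaatgtgaaaatggtcccggagaag
CXCR4 (probe bases 1 to 30, chromosome 2): ttttttcttgtgtttgtttagtttttgtga
CXCL5 (probe bases 1 to 30, named CXCL6 or SCYB6 in the files, chromosome 6): gttaaaattgtactttttaaatgtatctca
CXCL8 (probe bases 1 to 30, named IL8 in the files, chromosome 6): tcttgcccttattatgcaatgatgtgttgt
GRO1 (probe bases 6 to 35, named CXCL1 in the files, chromosome 6): tcCTTGTAAGGCATAATGCCTTGTTTAgtg
CXCL3 (probe bases 7 to 36, chromosome 6): tgCTTGTAAGGCATAATGCCTTGTTTAatg
CXCL2 (probe bases 1 to 30, chromosome 6): tttcttgtaaggcacAATGCCTTGTTTcat
CXCL10 (probe bases 1 to 30, named LOC615107 in the files, chromosome 6): actgccacccctccaaggggcccatattct
CXCR3 (probe bases 1 to 30, chromosome X): cagccatcagcttcccgccgggaatcatcc

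GRO1 and CXCL3 are next to each other on chromosome 6, in the cluster that also holds CXCL8, CXCL5, PPBP and CXCL2. Their probes shared a run of 25 bases, and the best ungapped alignment of both had 41 identical bases of 59. The CXCL2 probe shared 12 bases in a row with the GRO1 probe and 12 with the CXCL3 probe, and the other 33 pairs among these 9 probes shared 9 at most. Unbroken runs understate that likeness. The best ungapped alignment of the CXCL2 probe had 37 identical bases of 56 with GRO1 and 45 of 55 with CXCL3. How much CXCL3 or CXCL2 transcript binds the GRO1 probe was not tested, so the level of GRO1 is uncertain in that respect. The GC content of the whole probes lay between 20% for CXCR4 and 60% for CXCR3.

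Array brightness, taken as the 75th percentile of processed signal, ranged from 2020 to 4288, and the share of probes well above background ranged from 71.9% to 79.6%. All 7 luteal markers of steroid synthesis and hormone response, among them STAR, CYP11A1 and HSD3B1, were well above background on all 16 arrays. The arrays lay on 2 slides, replicates 1 and 2 of each group on slide 1 and replicates 3 and 4 on slide 2. Array position within a slide was tied to the group, and glands of pregnant cows were older than cyclic ones, so neither position nor gland age can be told apart from pregnancy. In whole tissue, fewer cells of a type and less RNA per cell cannot be told apart either. Levels are given on a log2 scale relative to the 75th percentile of the same array, so a difference of 1 is a 2-fold difference, and a probe's level is compared only with itself. With 4 arrays per group the number of animals limits the precision.

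CXCL12 had a higher mean level at each pregnant stage than in cyclic glands. It was the only one of the 7 genes to pass the test in any comparison, that of days 150-160 with cyclic cows. The test was an adjusted p under 0.05 in limma, adjusted over 11943 probes. CXCR4 and the ligands GRO1, CXCL5 and CXCL10 had lower mean levels at each pregnant stage than in cyclic glands, without passing. On days 20-25 none of the 7 genes was called against the cyclic group, where 0.293% of all probes were, although 4 genes had an unadjusted p under 0.05, as had 14.1% of all probes. On days 40-45 again 0 of 7 were called, against 1.23% of all probes, and 5 genes had an unadjusted p under 0.05 beside 14.7% of all probes. On days 150-160, 1 of 7 was called against the cyclic group, where 7.97% of all probes were called, 4.65% higher and 3.32% lower. The moderated F test over the 4 groups called 0 of the 7 genes and 3.86% of all probes, and 6 of the 7 had an unadjusted p under 0.05 there, as had 20.3% of all probes. The 3 comparisons share the 4 cyclic arrays, so their values are not independent.

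**Figure D1:**
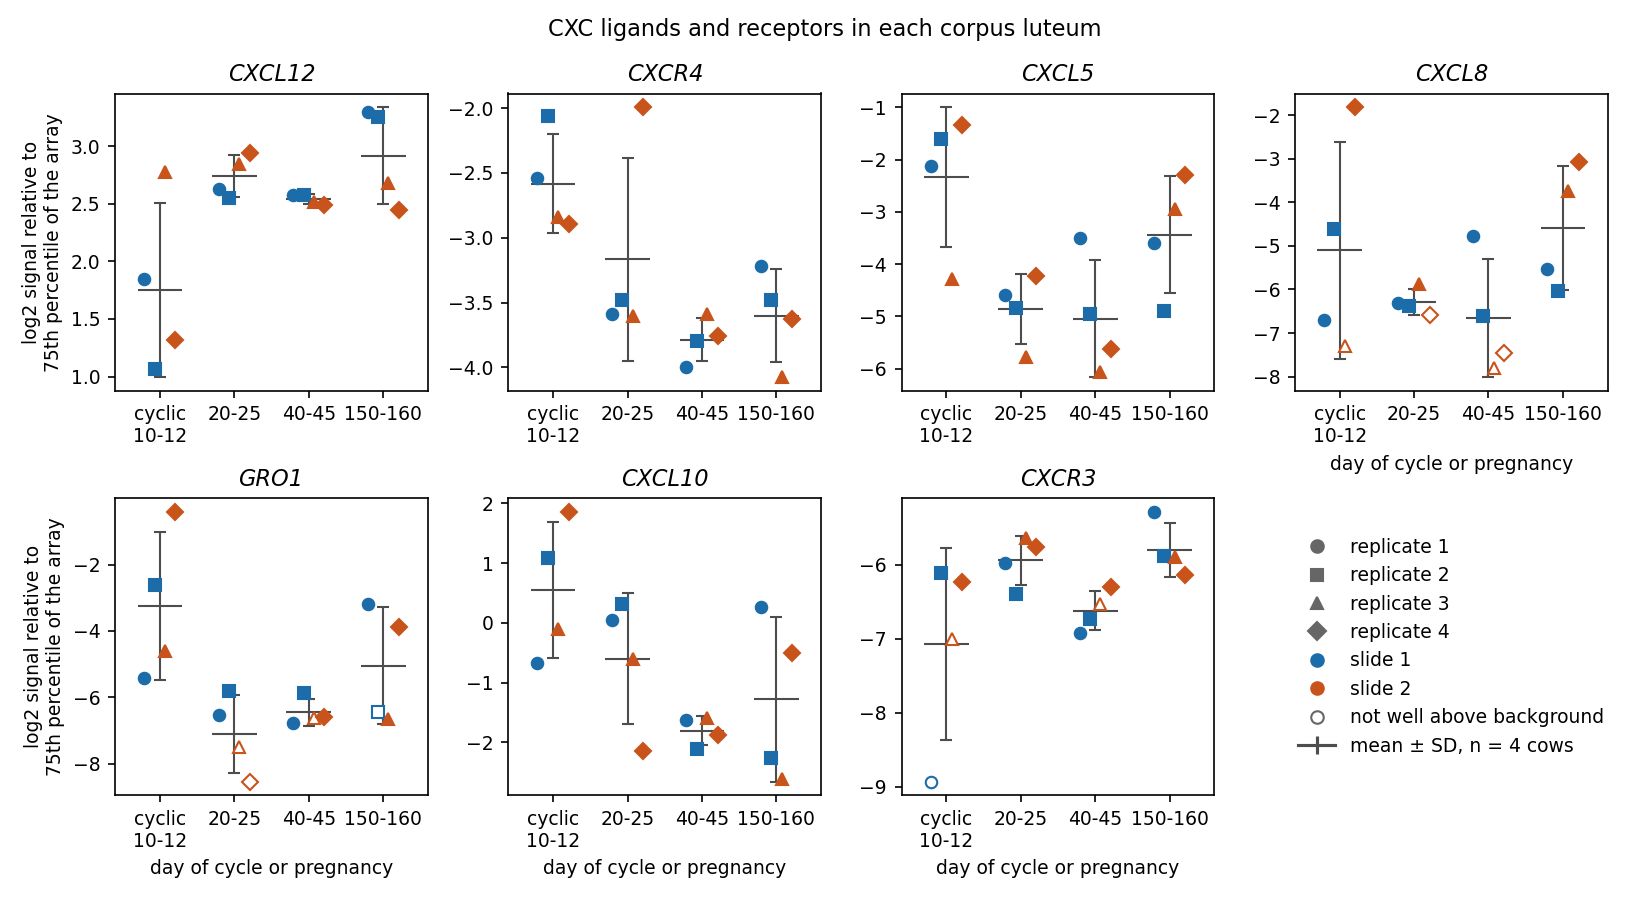
Level of each gene in each corpus luteum, as log2 signal relative to the 75th percentile of the array (vertical axis, a different range for each gene), against day of cycle or pregnancy. Symbols stand for replicates, colours for slides, open symbols for spots not well above background, and bars for mean ± SD of 4 cows. CXCL12 lay at 2.45 or above in all 12 pregnant cows and below 1.9 in 3 of 4 cyclic cows, and CXCL8 and GRO1 spread most widely in the cyclic group.

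CXCL12, the ligand of CXCR4, had log2 levels of 1.84, 1.06, 2.78 and 1.32 in the 4 cyclic glands. On days 20-25 they were 2.63, 2.55, 2.84 and 2.94, on days 40-45 they were 2.58, 2.57, 2.52 and 2.49, and on days 150-160 they were 3.30, 3.25, 2.68 and 2.45. Cyclic replicate 3 lay among the pregnant cows, so the groups overlapped, while the other 3 cyclic cows were below every pregnant one. The mean level was 2.92 ± 0.421 on days 150-160 and 1.75 ± 0.757 in cyclic cows (SD, n = 4 each). CXCL12 thus rose 2.25-fold on days 150-160, by 1.17 on the log2 scale (SE 0.295, 95% interval 0.54 to 1.80, adjusted p = 0.0264 in limma). With slide as a block the adjusted p was 0.029. Within slide 1 the difference was 1.82 (adjusted p = 0.0337) and within slide 2 it was 0.52 (adjusted p = 0.744).

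Single cows decided that call. It was lost without cyclic replicate 2, cyclic replicate 4, days 150-160 replicate 1 or days 150-160 replicate 2, with adjusted p between 0.0665 and 0.0765, and also with limma's array weights (0.0715) or with only the 8 arrays of both groups in the fit (0.144). Without cyclic replicate 3 the difference was 1.51 (adjusted p = 0.00155). For the earlier stages the differences from cyclic cows were 0.99 on days 20-25 (SE 0.295, adjusted p = 0.149) and 0.79 on days 40-45 (SE 0.295, adjusted p = 0.212). Without cyclic replicate 3 they were 1.33 and 1.13, both past the threshold (adjusted p = 0.0256 and 0.0236). With other single arrays left out the adjusted p reached 0.308 and 0.454 at most. CXCL12 varied little among cows on days 40-45, with an SD of 0.0428, and 98.4% of the probes tested had a larger SD in that group. In the cyclic group only 9.60% of the probes had a larger SD than CXCL12.

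Of 11 endothelial marker genes, all well above background on all 16 arrays, 3 were called higher on days 150-160 than in cyclic glands, beside 4.65% of all probes: ENG, a TGF-beta co-receptor (1.13, adjusted p = 0.0147), FLT1, a VEGF receptor (1.42, adjusted p = 0.0157), and TEK, the angiopoietin receptor (0.85, adjusted p = 0.0351). Of the 11, 9 had a higher mean on days 150-160, with a median difference of 0.37 beside 0.03 over all probes. VWF (-5.59, cyclic -5.08) and TIE1 (-1.46 in both groups) did not. The summed endothelial signal, relative to the 75th percentile, lay between 19.3 and 35.0 on days 150-160 and between 12.3 and 20.0 in cyclic cows. Such sums, here and below, add linear levels, so the brightest probes weigh most, in this one ENG, ROBO4 and CD34. Of 8 stromal and pericyte markers tested, 3 collagen genes were called lower, beside 3.32% of all probes, and none higher. In 2 of the 8 the mean was higher on days 150-160, without a call. These were ACTA2 (0.89, cyclic -0.07) and RGS5 (3.95, cyclic 3.40), and the others had lower means. The summed signals, which include the collagens, were 46.8 to 69.5 on days 150-160 and 59.9 to 83.5 in cyclic cows. The part of endothelial or stromal cells in the CXCL12 difference was not tested.

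CXCR4, the receptor for CXCL12, had log2 levels of -2.54, -2.06, -2.84 and -2.89 in cyclic glands. The levels were -3.59, -3.48, -3.61 and -1.99 on days 20-25, -4.00, -3.80, -3.59 and -3.76 on days 40-45, and -3.22, -3.48, -4.08 and -3.62 on days 150-160. All 8 cows of the later stages were below all 4 cyclic cows, and on days 20-25 replicates 1 to 3 were below them while replicate 4 had the highest level of the 16. The mean was -3.79 ± 0.169 on days 40-45 and -2.59 ± 0.381 in cyclic cows (SD, n = 4 each), a difference of -1.20 (SE 0.317, 95% interval -1.88 to -0.52, adjusted p = 0.0808 in limma). On days 150-160 it was -3.60 ± 0.359, a difference from cyclic cows of -1.02 (SE 0.317, 95% interval -1.69 to -0.34, adjusted p = 0.0636). Neither passed the threshold. At each pregnant stage the mean of the ligand CXCL12 was thus above and that of its receptor CXCR4 below the cyclic mean, and only the ligand passed, on days 150-160.

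Whether CXCR4 passed depended in part on days 20-25 replicate 4, which is in neither group compared but adds to the shared spread. Without it the adjusted p was 0.0102 for days 40-45 and 0.00779 for days 150-160, with the same differences. With other single arrays left out the adjusted p reached 0.193 and 0.151 at most. With array weights it was 0.0234 and 0.041. With only the arrays of both groups the comparison of days 40-45 gave 0.0446, and that of days 150-160 did not pass. On that cow's array 73.0% of probes were well above background, against 78.3% to 79.5% on the other arrays of days 20-25, and its summed signal was the highest of its group for 5 of 8 marker lists. These were the neutrophil (1.96, lowest of the group 1.09), macrophage (1.96, lowest 1.91), stromal and pericyte (98.8, lowest 71.6), luteal (532, lowest 367) and granulosa (13.5, lowest 5.60) markers. The part of these cells or of array quality in its CXCR4 level was not tested. Within slides the differences of days 40-45 were -1.60 and -0.81, and those of days 150-160 were -1.05 and -0.98. For days 20-25 the difference was -0.58 (adjusted p = 0.417), with -1.23 within slide 1 and 0.07 within slide 2.

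Groups that did not overlap were no rarity among all probes. Against cyclic cows, 1 of the 7 genes (GRO1) had groups apart on days 20-25, where 7.44% of all probes did. On days 40-45, 3 of 7 (CXCR4, GRO1 and CXCL10) had groups apart, all lower in pregnancy, against 9.67% of all probes and 4.55% in that direction. On days 150-160 it was 1 of 7 (CXCR4), against 11.7% of all probes.

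**Figure D2:**
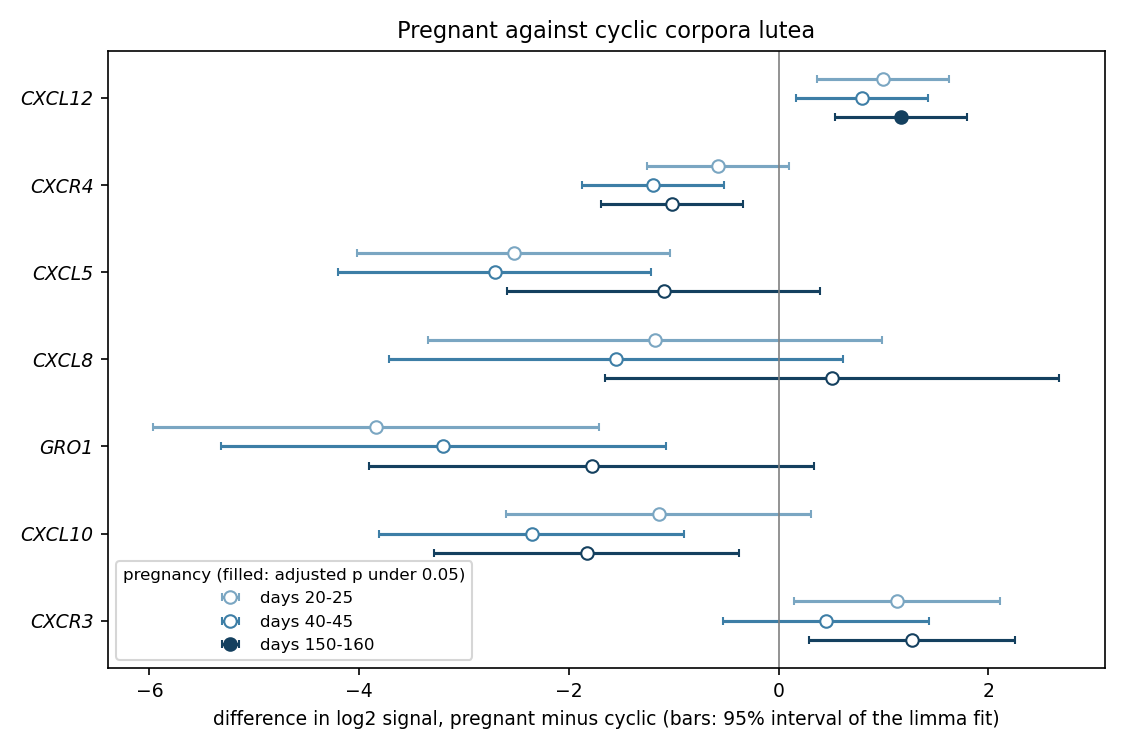
Difference in mean log2 signal, pregnant minus cyclic (horizontal axis), for each gene and stage of pregnancy, with 95% intervals of the limma fit. The only filled point, an adjusted p under 0.05, is CXCL12 on days 150-160 at 1.17, and GRO1 on days 20-25 lies farthest from 0 at -3.84 with an interval from -5.96 to -1.72.

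Among the ELR ligands, CXCL5, a neutrophil attractant, was well above background in every cow. It had log2 levels of -2.11, -1.61, -4.29 and -1.34 in cyclic glands, and of -4.60, -4.84, -5.78 and -4.23 on days 20-25. The levels were -3.50, -4.96, -6.07 and -5.63 on days 40-45 and -3.59, -4.90, -2.95 and -2.30 on days 150-160. All cyclic cows but replicate 3 exceeded every cow of days 20-25 and 40-45, and the cows of days 150-160 overlapped with both sides. The difference from cyclic cows was -2.52 on days 20-25 (SE 0.699, adjusted p = 0.133), a mean 5.75-fold lower, and -2.70 on days 40-45 (SE 0.699, adjusted p = 0.0756), a mean 6.52-fold lower. Without cyclic replicate 3 the difference of days 40-45 was -3.36 and passed (adjusted p = 0.0181). With other single arrays left out its adjusted p reached 0.199 at most. On days 150-160 the difference was -1.10 (adjusted p = 0.371), with -2.39 within slide 1 and 0.19 within slide 2.

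GRO1, also called CXCL1 and a ligand of CXCR2, had log2 levels of -5.40, -2.61, -4.61 and -0.41 in cyclic glands, all well above background. On days 20-25 they were -6.54, -5.81, -7.48 and -8.54, with replicates 3 and 4 not well above background. On days 40-45 they were -6.76, -5.85, -6.63 and -6.57, with replicate 3 not well above background. On days 150-160 they were -3.18, -6.44, -6.66 and -3.87, with replicate 2 not well above background. All 4 cyclic cows were above all 8 cows of days 20-25 and 40-45, and replicates 1 and 4 of days 150-160 lay inside the cyclic range. The mean was -7.09 ± 1.18 on days 20-25 and -3.26 ± 2.23 in cyclic cows (SD, n = 4 each).

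That difference of -3.84 (SE 0.995, 95% interval -5.96 to -1.72) did not pass (adjusted p = 0.114 in limma), nor did those of -3.20 on days 40-45 (adjusted p = 0.133) and -1.78 on days 150-160 (adjusted p = 0.301). With values under background raised to the lowest signal well above it, the difference of days 20-25 was -3.04 (adjusted p = 0.152). Without cyclic replicate 4, the highest GRO1 level of the 16, the differences were -2.89, -2.25 and -0.83. Within slides the difference of days 20-25 was -2.17 on slide 1 and -5.50 on slide 2.

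CXCL8, or interleukin-8, a major neutrophil attractant, had log2 levels of -6.71, -4.61, -7.29 and -1.82 in cyclic glands, a 44.5-fold span between the lowest and highest cow. The levels were -6.31, -6.38, -5.87 and -6.58 on days 20-25, -4.77, -6.60, -7.80 and -7.45 on days 40-45, and -5.53, -6.04, -3.74 and -3.07 on days 150-160. Cyclic replicate 3, days 20-25 replicate 4 and days 40-45 replicates 3 and 4 were not well above background, and all 4 cows of days 150-160 were. The groups overlapped in each comparison with cyclic cows, and the differences of -1.18, -1.55 and 0.51 in stage order had intervals from -3.35 to 0.99, -3.72 to 0.62 and -1.66 to 2.68 (adjusted p = 0.606, 0.535 and 0.815). No CXCL8 difference was detectable at this spread.

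Neutrophil markers were measured in the same glands. S100A8, S100A12, MMP9 and CATHL2, named after their values were seen, were well above background on all 16 arrays and were not called against cyclic cows at any stage. The cathelicidin genes CATHL1, CATHL3 and CATHL4, whose peptides are stored in granules, were well above background on none of the 12 pregnant arrays and on 3 or 4 of the 4 cyclic ones. ITGAM, an integrin chain of neutrophils and macrophages, was well above background in 4 of 4 cows of days 150-160 and in 1 of 4 cows of each other group. These 4 genes passed the filter on dim signals only through the group where they were high, so no test of them is given. The summed neutrophil signal lay between 0.991 and 4.08 in cyclic cows, between 1.09 and 1.96 on days 20-25, between 1.20 and 1.63 on days 40-45, and between 1.61 and 2.69 on days 150-160, with the highest value in cyclic replicate 2. The part of neutrophils in the levels of the ELR ligands was not tested.

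CXCL10, the interferon-inducible ligand of CXCR3, was well above background in all 16 cows. It had log2 levels of -0.67, 1.09, -0.10 and 1.86 in cyclic glands, 0.05, 0.31, -0.60 and -2.15 on days 20-25, -1.62, -2.12, -1.60 and -1.89 on days 40-45, and 0.26, -2.26, -2.62 and -0.50 on days 150-160. The cows of days 40-45 lay close together and below all cyclic cows, and those of days 20-25 and 150-160 overlapped with cyclic ones. The mean was -1.81 ± 0.247 on days 40-45 and 0.55 ± 1.14 in cyclic cows (SD, n = 4 each), a difference of -2.35 (SE 0.681, 95% interval -3.81 to -0.90) that did not pass (adjusted p = 0.108 in limma). It was -1.92 without cyclic replicate 4, and -2.08 and -2.62 within the slides. With array weights it was -2.51 and passed (adjusted p = 0.0355). The differences of days 20-25 and 150-160 from cyclic cows were -1.14 (adjusted p = 0.454) and -1.83 (adjusted p = 0.116).

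CXCR3, the receptor for CXCL10, had log2 levels of -8.93, -6.11, -7.01 and -6.24 in cyclic glands, where replicates 1 and 3 were not well above background. The levels were -5.97, -6.39, -5.64 and -5.76 on days 20-25, -6.92, -6.73, -6.53 and -6.30 on days 40-45, with replicate 3 not well above background, and -5.28, -5.88, -5.89 and -6.14 on days 150-160. The receptor was therefore dim in all groups, and 3 of 4 cows of both days 20-25 and days 150-160 exceeded all cyclic cows. The difference from cyclic cows was 1.13 on days 20-25 (adjusted p = 0.291), 0.45 on days 40-45 (adjusted p = 0.733) and 1.27 on days 150-160 (SE 0.460, 95% interval 0.29 to 2.26, adjusted p = 0.105). With values under background raised to the lowest signal above it, these were 0.64, -0.00347 and 0.78, so the size rested in part on cyclic replicate 1. Neither CXCL10 nor its receptor passed at any stage.

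Among T and natural killer cell markers, 12 were tested, and on none of the 16 arrays was the CD4 spot well above background. On days 150-160, 1 was called lower than in cyclic glands (KLRB1, -1.03, adjusted p = 0.0366), beside 3.32% of all probes, and none higher. KLRB1 was well above background on 1 of 4 arrays of days 150-160 and on all cyclic ones. Of the 12 markers, 8 had a higher mean on days 150-160, with a median difference of 0.17 beside 0.03 over all probes. The summed signal lay between 0.967 and 2.01 on days 150-160 and between 0.649 and 1.68 in cyclic cows. Of 7 macrophage markers, CD68, a lysosomal protein (-1.57, adjusted p = 0.00277), and MRC1, the mannose receptor (-1.03, adjusted p = 0.0217), were called lower on days 150-160, beside 3.32% of all probes, with summed signals of 1.13 to 2.10 there and 1.93 to 4.40 in cyclic cows. The part of these cells in the levels of CXCL10, CXCR3 and CXCR4 was not tested.

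Between stages of pregnancy none of the 7 genes was called in limma. The background was low, with 0.0335% of all probes called for days 40-45 against 20-25, 1.57% for days 150-160 against 20-25, and 0.0419% for days 150-160 against 40-45. At an unadjusted p under 0.05 the counts were 0, 0 and 1 of the 7 (CXCL5), beside 8.42%, 13.9% and 9.22% of all probes. All 7 genes had a higher mean on days 150-160 than on days 40-45, by 0.19 for CXCR4 to 2.06 for CXCL8 (adjusted p = 0.573 for the largest), and for CXCR3 these groups did not overlap, as for 6.41% of all probes. In the order of stages, the lowest mean was that of days 40-45 for CXCR4, CXCL5, CXCL8 and CXCL10, that of days 20-25 for GRO1, and that of cyclic cows for CXCL12 and CXCR3. With values under background raised to the lowest signal above it, days 20-25 and 40-45 changed places for CXCL8 and GRO1. No difference between neighbouring pregnant stages passed the test for any of the 7.

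The spread among cows was itself wide. In the cyclic group 5 of the 7 genes had an SD over 1 on the log2 scale, against 5.09% of all probes tested, and on days 150-160 it was 4 of 7 against 3.38%. On days 20-25 and 40-45 it was 2 of 7 each, against 4.90% and 2.22%. Only 0.193% of probes had a larger SD than CXCL8 in the cyclic group and 0.368% a larger SD than GRO1, whose highest and lowest cyclic cows were 31.8-fold apart. Cyclic replicate 4 had the highest level of the 16 cows for 4 of the 7 genes (CXCL5, CXCL8, GRO1 and CXCL10), and cyclic replicate 2 was second for CXCL5, GRO1 and CXCL10 and also for CXCR4. For CXCL12 the order was turned, with replicate 2 lowest and replicate 4 next to lowest of the 16.

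Cyclic replicates 4 and 2 were also highest and next of the 16 for IL1A, IL1B and IL1RN, the IL-1 receptor antagonist. IL1B, an inducer of ELR chemokines, had log2 levels of -6.10, -4.06, -5.87 and -1.04 in cyclic glands and between -6.53 and -5.33 in the 12 pregnant ones. IL1A had -7.55, -4.62, -6.78 and -1.56 in cyclic glands and was well above background in 1 of 12 pregnant cows. For TNF and IL6 cyclic replicate 4 was again highest, but days 150-160 replicate 1 came next, and cyclic replicate 2 was at rank 6 for TNF and 5 for IL6. IL1A passed the filter on dim signals only through the cyclic group, so no test of it is given. None of IL1B, IL1RN, TNF and IL6 was called against cyclic cows at any stage. IL1RN came nearest on days 150-160 with -2.41 (adjusted p = 0.0733).

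**Figure D3:**
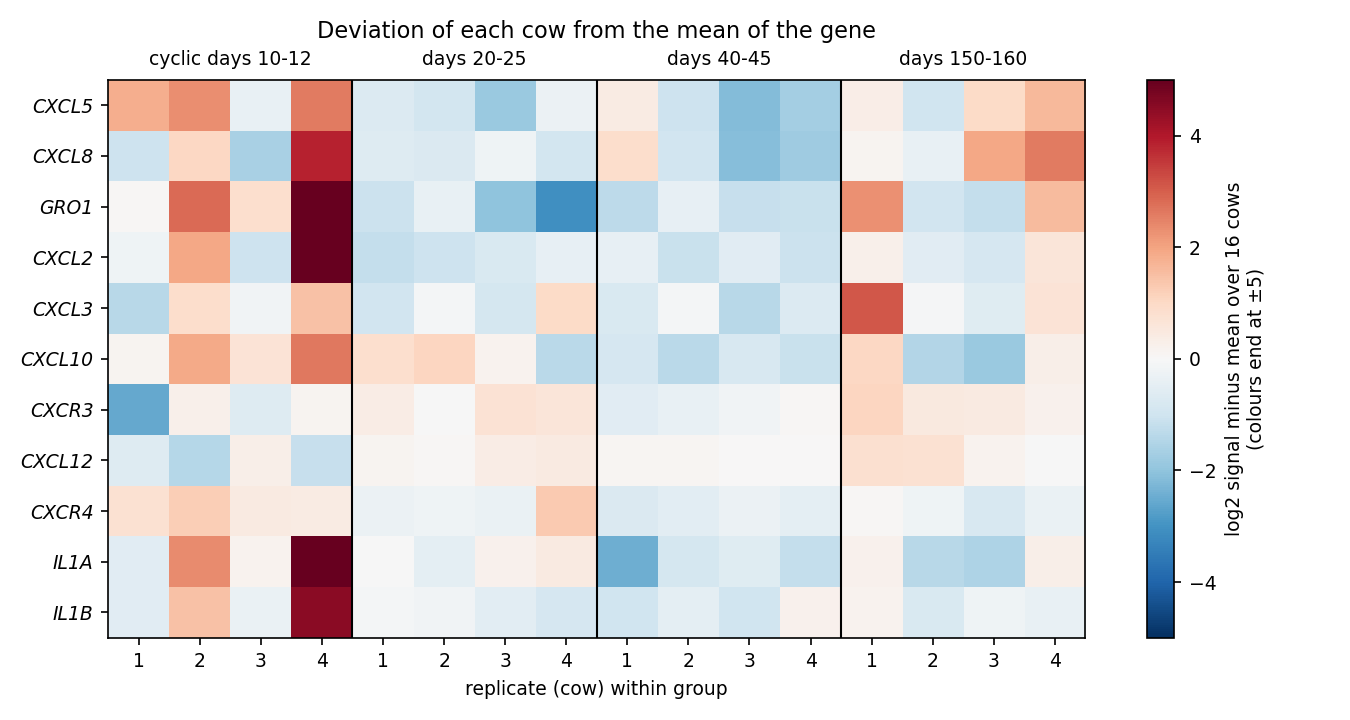
Deviation of each cow's log2 signal from the mean over 16 cows, by gene (rows) and cow (columns, grouped by stage). Red is above and blue below the mean, and colours end at 5 in either direction. Cyclic replicates 2 and 4 are red for CXCL5, GRO1, CXCL2, CXCL10, IL1A and IL1B and blue for CXCL12, and days 150-160 replicates 1 and 4 are red for GRO1 and CXCL3.

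GRO1 and CXCL10 varied together among cows once group means were taken away, though not on days 40-45. Over the deviations of the 16 cows from their group means, Pearson's r was 0.929 (permutation p = 0.00036, adjusted over 21 pairs of genes 0.00756) and Spearman's rho was 0.918 (permutation p = 0.00116, adjusted 0.0244). Leaving out the 2 cows farthest from the median of GRO1 gave 0.914, the slides gave 0.93 and 0.932, and the 12 pregnant cows alone gave 0.931. The cows of days 40-45 went the other way within their narrow range, replicate 2 having the most GRO1 (-5.85) and the least CXCL10 (-2.12) of the 4. GRO1 was well above background in 12 of the 16 cows, and the others were all pregnant. Among those others was days 20-25 replicate 4, the lowest GRO1 level of the 16. Labels were permuted within groups, and all tests were two-sided. CXCL5 and CXCL8 also went together, with r = 0.77 (permutation p = 0.00465, adjusted 0.0488) and rho = 0.788 (permutation p = 0.0035, adjusted 0.0367). Without the 2 cows farthest from the median of CXCL5 the r was 0.675, within slides it was 0.808 and 0.821, and in the 12 pregnant cows it was 0.823. Here the cows of days 20-25 went the other way. Their replicate 4 had the most CXCL5 (-4.23) and the least CXCL8 (-6.58) of the 4, and replicate 3 the reverse. CXCL8 too was well above background in 12 of the 16 cows, and days 20-25 replicate 4 was not among them. What spots near background add to either correlation was not tested.

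The remaining 19 pairs did not pass the adjustment. Although GRO1 and CXCL8 are ELR ligands of the same cluster, their r was 0.562 (permutation p = 0.111, adjusted 0.467), and 0.0439 in the 12 pregnant cows. On days 150-160 the cows split accordingly: replicates 1 and 4 had the most GRO1 and CXCL10, and replicates 4 and 3 the most CXCL5 and CXCL8. CXCL12 ran against CXCL5 with r = -0.692 (permutation p = 0.014, adjusted 0.0979), which did not pass. Neither receptor passed with its ligand. For CXCR4 and CXCL12 the r was 0.042 (permutation p = 0.865, adjusted 0.908), 0.515 without the 2 cows farthest from the median of CXCL12 and 0.49 in the 12 pregnant cows. For CXCR3 and CXCL10 it was 0.428 (permutation p = 0.181, adjusted 0.517), 0.474 without the 2 farthest cows and 0.00442 in the 12 pregnant cows.

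**Figure D4:**
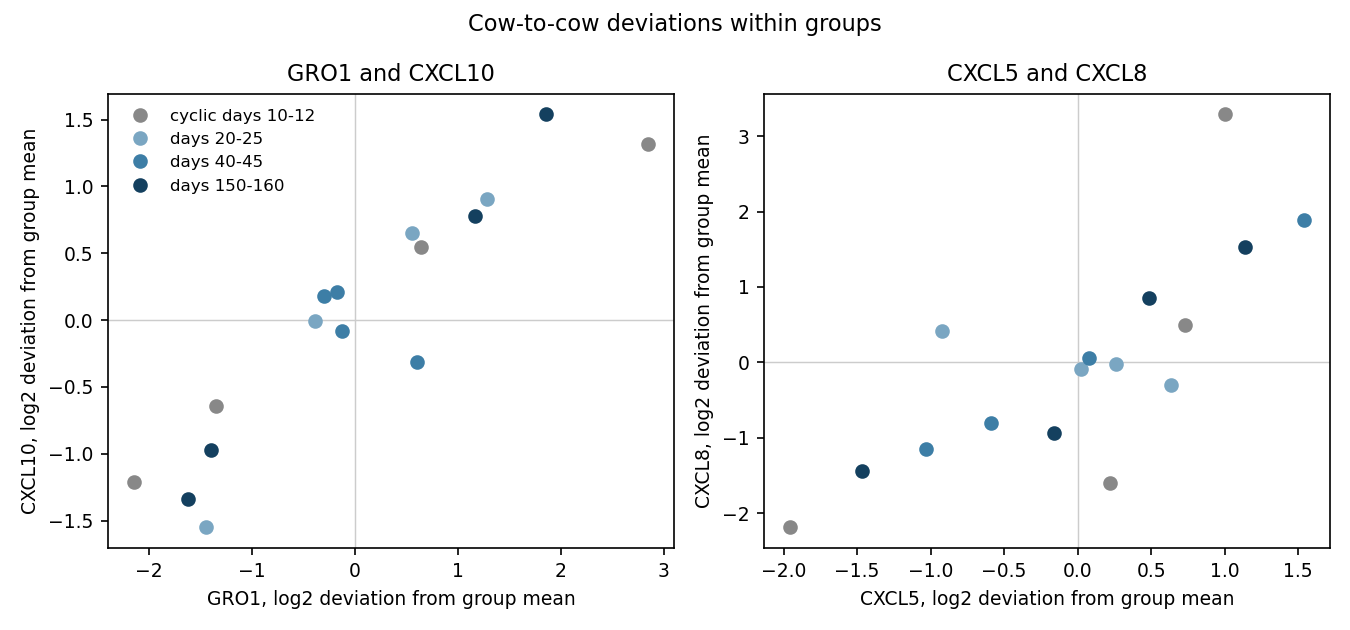
Deviation of each of the 16 cows from its group mean in log2 signal, GRO1 against CXCL10 (left, r = 0.929) and CXCL5 against CXCL8 (right, r = 0.77), with colours for the groups. On the left the points of 3 groups rise together while those of days 40-45 fall over a narrow range, and on the right the points of days 20-25 fall while the other 3 groups rise.

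The genes whose levels over the 16 cows were most like each member were taken from 5687 symbols, as a description across groups that shares slides and arrays. Those for CXCL12 included PODXL and LNX1 (r = 0.894 and 0.889), and PODXL encodes podocalyxin of the vascular lining. For CXCR4 they were ALCAM, an adhesion molecule, SERF1B and RGS17 (0.895, 0.877 and 0.871). CXCL5 was most like CATHL1 (0.795), followed by CXCL8 (0.758) and EIF1B (0.747). CATHL1 was well above background on all cyclic arrays and on 0 arrays of each pregnant group. Its r with CXCL5 thus cannot be told apart from that difference between groups. CXCL8 was most like CXCL5, NFE2 and SMAD7 (0.758, 0.750 and 0.750), and GRO1 like NFE2, ATF3 and CASP1 (0.843, 0.827 and 0.820). CXCL10 was most like RASSF5, IRF5, an interferon regulatory factor, and CASP1 (0.891, 0.885 and 0.880), so CASP1, the protease that matures IL-1beta, stood near both GRO1 and CXCL10. CXCR3 was most like DMPK, FAM53C and NUAK2 (0.897, 0.878 and 0.871).

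Of 18 other CXC ligands and receptors, 8 were on the array, 3 passed the filter on dim signals and 0 were called in limma in any of the 6 comparisons. CXCL16, a transmembrane chemokine, had mean levels of 0.71, 0.50, 0.63 and 0.71 in the 4 groups in stage order, and its difference of days 150-160 from cyclic cows was -0.00199 (95% interval -0.54 to 0.54). CXCL3, the neighbour of GRO1, had means of -0.29 ± 1.25, -0.72 ± 0.885, -1.21 ± 0.513 and 0.30 ± 1.65 (SD, n = 4 each), and its highest level, 2.63, was that of days 150-160 replicate 1. CXCR5, a B cell receptor for CXCL13, had means between -6.01 and -5.60, and ACKR1, an atypical receptor that binds many chemokines, was well above background on 5 of 16 arrays.

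CXCL2, CXCL13 and CXCR1, singled out after their values were seen, were well above background only in cyclic replicates 2 and 4 and in none of the 12 pregnant cows, so they were not tested. CXCL2, an ELR ligand, had log2 levels of -8.35, -6.21, -9.17 and -1.64 in cyclic glands. CXCL13, which attracts B cells, had -9.39, -1.61, -8.42 and -3.54 there. CXCR1, a neutrophil receptor for CXCL8 whose probe bears the name IL8RB in the files, had -8.63, -6.09, -7.46 and -5.68.

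The list drawn up for inducers of ELR chemokines had 17 tested genes. Not all of them are inducers, IL1RN being the IL-1 receptor antagonist. The list also counts IL1A, which passed the filter on dim signals only through the cyclic group. On days 150-160, 1 of the 17 was called higher than in cyclic glands, beside 4.65% of all probes. This was NFKBIZ, a nuclear cofactor of NF-kappaB (1.18, SE 0.304, adjusted p = 0.0287). The median difference over the list was 0.35 beside 0.03 over all probes. MYD88, the adaptor of IL-1 and Toll-like receptors (0.55, adjusted p = 0.0520), FOS (2.98, adjusted p = 0.0592) and TLR2 (-0.76, adjusted p = 0.0612) did not pass. Of 14 tested genes on the interferon-gamma side, 1 was called lower, PSMB9, an immunoproteasome subunit (-0.80, SE 0.195, adjusted p = 0.0223), beside 3.32% of all probes, with a median of -0.06. ISG15, an interferon-induced ubiquitin-like protein, was called lower on days 150-160 than on days 20-25 (-2.15, SE 0.454, adjusted p = 0.0279).

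Of 11 tested regulators of CXCL12 and CXCR4, 1 was called higher on days 150-160 than in cyclic glands, EPAS1, a hypoxia-inducible factor (0.68, SE 0.175, adjusted p = 0.0293), beside 4.65% of all probes, with a median of -0.02. A single called gene in lists of this size says nothing particular about a list. VEGFA (0.79, adjusted p = 0.0661) and VCAM1, an endothelial adhesion molecule (-0.83, adjusted p = 0.134), did not pass. Of 16 tested genes of chemokine receptor signalling 0 were called, with GRK5, a receptor kinase, nearest at 0.51 (adjusted p = 0.0977) and a median of -0.09. None of these 4 lists had a called gene on days 20-25 or 40-45 against cyclic cows, where 0.293% and 1.23% of all probes were called.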

How the data were processed

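Cy3-labelled RNA of 16 corpora lutea was read from 1-colour Agilent bovine arrays. Agilent Feature Extraction 9.5 gave the scanner files, per the submitters' processing notes. Per the file headers the deposited processed signal is a background-subtracted intensity on a linear scale, not scaled between arrays, with flags for spots well above background, saturated or outlying. The deposited value table holds log2 values. Compared with the scanner files, each column equals log2 processed signal minus a constant within 0.0145 of the array's 75th percentile (largest departure 0.00461), with column medians from -3.18 to -2.98, and it served as an alternative.

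The 536 control spots of each array were dropped, 15208 probes remained, and 36 outlier spots over all arrays were set to missing. Levels are log2 processed signal minus the array's 75th percentile. Probes well above background and not outlying on at least 3 of 4 arrays of a group were tested (11943). Names came from accessions, gene IDs, symbols or descriptions through RefSeq genes of ARS-UCD2.0 (7059 probes with a symbol). No member's spot was saturated or outlying.

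limma 3.58.1 (lmFit, eBayes) in R 4.3.3 fitted all 16 arrays by group (residual degrees of freedom 12, prior 2.77), two-sided, with Benjamini-Hochberg adjustment over all probes tested and calls at 0.05. The method was tested on simulated data. Correlations within groups used 100000 permutations. Alternatives were normexp correction, quantile normalization, filters, a floor, slide or replicate as a block, single slides, array weights, fits of 2 groups, and each array left out.

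Members and lists were chosen with earlier results of these data known. Named genes were all members, the 4 other CXC genes with the highest mean signal, up to 4 list genes with the smallest adjusted p, and for each member the 3 symbols with the most similar levels, of which 1 is not reported here. No genome was used, so no positions are given.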

Additional observations from a re-analysis of the deposited data

Results flagged for a closer look

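CXCR4 on days 20-25 had 1 cow far from the others. Replicate 4 had a log2 level of -1.99, while replicates 1 to 3 lay between -3.61 and -3.48. Its gap to the nearest cow was 0.923 of the range of the group, above Dixon's critical value of 0.829 for 4 values. Of 28 groups examined, 7 genes in 4 groups, it was the only one past that value, and chance alone passes about 1 in 20. Without this cow the CXCR4 differences of days 40-45 and 150-160 from cyclic cows pass the threshold (adjusted p = 0.0102 and 0.00779 in limma). With other single arrays left out the adjusted p reached 0.193 and 0.151 at most.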

How the results depend on the processing

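Counts of members called changed with the choice of arrays and fit. On days 40-45 against cyclic cows, 2 were called with array weights (CXCL10 and CXCR4) and 1 with only the 2 groups in the fit (CXCR4). Of all 11943 probes, 263 were called with array weights and 73 with only the 2 groups, compared with 147 without these changes. On days 150-160, 0 were called within slide 2 or with only the 2 groups, and with array weights CXCR4 was called and CXCL12 was not. Of all probes, 21 were called within slide 2, 315 with only the 2 groups and 566 with array weights, compared with 952. The F test called 2 with array weights (CXCL10 and CXCR4), beside 489 of all probes, compared with 461 without weights. With 1 array left out the counts ranged from 0 to 1 on days 20-25, 0 to 2 on days 40-45, 0 to 2 on days 150-160 and 0 to 2 for the F test. Over all probes the same fits called 4 to 85, 63 to 226, 583 to 1104 and 267 to 504. The CXCL12 difference of days 150-160 had adjusted p from 0.00155 to 0.744 over all alternatives. Quantile normalization, normexp correction, the deposited table, the filters, the floor and slide as a block kept its call.

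Of 486 values of single genes under other alternatives, 464 kept direction and side of the threshold, as did 654 of 672 with single arrays left out. Directions turned within slide 2 for CXCL12 (-0.33) and CXCR3 (-0.31) on days 150-160 against 20-25, CXCR4 on days 20-25 against cyclic (0.0694) and days 150-160 against 40-45 (-0.18), and CXCL5 on days 150-160 against cyclic (0.19). Within slide 1 they turned for CXCR4 on days 150-160 against 20-25 (0.19), on days 40-45 against 20-25 for CXCL5 (0.48), CXCL8 (0.66) and GRO1 (-0.13), on days 150-160 against 40-45 for CXCL5 (-0.0143) and CXCL8 (-0.10), and for CXCL8 on days 150-160 against cyclic (-0.13). With values raised to background, CXCL8 (0.0378) and GRO1 (-0.10) turned on days 40-45 against 20-25, and CXCR3 on days 40-45 against cyclic (-0.00347). Leaving out 1 array gave -0.69 to 0.16 for CXCL5 and -1.002 to 0.00979 for CXCL8 on days 40-45 against 20-25, -0.22 to 1.61 for CXCL8 on days 150-160 against cyclic, -0.17 to 0.77 for CXCR3 on days 40-45 against cyclic, and -0.0299 to 0.26 for CXCR3 on days 150-160 against 20-25. None of these turned differences was called. The causes were not tested.

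The replicate numbers shared by the groups follow the slides, and each array is a separate animal. Deviations of the 24 same-numbered pairs correlated between 0.000574 and 0.291 (median 0.0902, 9 over 0.1). The median was 0.0452 for other numbers on the same slide and -0.0906 for pairs on different slides. Of 16 arrays, 11 correlated best with their own number. What same-numbered arrays share beyond the slide was not tested. With the replicate block, 1086 probes were called on days 150-160 against cyclic cows, compared with 952 without it, and the CXCL12 difference had an adjusted p of 0.0343. The block changed no call of the 7 genes. Each gene had 1 probe, so the choice of probe gave no other value, and CXCL8, GRO1 and CXCR3 have no value where probes had to be well above background on all 16 arrays. Spots near background limit CXCL8, GRO1 and CXCR3, which were not well above it on 4, 4 and 3 of 16 arrays.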
